A study of Homo sapiens with 9 samples.

Results

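Syndecans and glypicans are cell surface proteins that carry heparan sulfate chains. The members described here are the 4 syndecans (SDC1 to SDC4) and the 6 glypicans (GPC1 to GPC6), read by every probe set that the array's annotation assigns to exactly 1 of these genes. That rule gave 18 of the 54675 probe sets in the file, 8 for syndecans and 10 for glypicans, and all 18 were among the 54613 tested after 62 array controls were set aside. Of these members, SDC4, GPC2 and GPC5 had 1 probe set each, SDC2 had 3, and the others had a pair.

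Gene expression was profiled on 9 Affymetrix Human Genome U133 Plus 2.0 arrays of MDA-MB435S cells, which the labels call a metastatic melanoma line. Of these arrays, 3 were of cells expressing the tumor suppressor WWOX, 3 of cells expressing the WFPA mutant, in which the binding of WWOX to partner proteins is disrupted, and 3 of cells with an empty vector (EV). All groups were grown in the same serum-supplemented medium, and the stable clones came from 1 type of lentiviral vector with G418 selection. How many clones stand behind a group is not given in the sources used here, so that the construct and the clone cannot be told apart. In bulk RNA, fewer cells that make a transcript and less of it per cell cannot be told apart either.

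The vector field of the labels conflicts with the sample titles. It gives wild-type WWOX for the arrays titled MDA_EV(wox+) and none for those titled MDA_wox5. The groups follow the titles, and under the vector field the sign of WWOX against EV would be reversed. At the WWOX probe set 221147_x_at the log2 intensity was 8.46, 8.20 and 7.87 in WWOX cells, 7.68, 7.56 and 7.68 in WFPA cells and 4.44, 4.83 and 4.21 in EV cells, so that by the titles both groups given a WWOX construct lay above EV there. This was the largest difference among 5 WWOX probe sets, which did not all run the same way. At 223868_s_at the log2 difference was 1.72 between WWOX and EV (adjusted p = 2.95e-04 from limma) and 1.30 between WFPA and EV (adjusted p = 0.00285), and at 219077_s_at differences of 1.23 and 1.59 did not pass. At 210695_s_at WWOX minus EV was 0.12 and WFPA minus EV was -0.0026. At 223747_x_at WFPA cells lay below EV by -0.73 (adjusted p = 0.0433), and WWOX minus EV was -0.23 and did not pass. The WWOX arrays resembled each other less than other replicates did, with correlations over all probe sets of 0.987 to 0.993, against 0.996 among WFPA arrays and 0.994 to 0.996 among EV arrays. Of 8 melanocyte and melanoma markers measured, 4 (MITF, SOX10, S100B and S100A1) were called higher in WWOX cells, and their list averaged 7.95 to 8.16 per array in WWOX cells, 5.99 to 6.11 in WFPA cells and 5.91 to 5.94 in EV cells. The markers TYRP1 and MLANA lay under or near the lower quartile of the arrays in all groups. Of the markers of other cell types, 4 of 10 epithelial ones and 1 of 4 haematopoietic ones (PTPRC) were called lower in WWOX cells. Of 8 fibroblast markers, 3 were called higher. Of 5 endothelial markers, limma called 0 (2 at an unadjusted p under 0.05, 0 in a plain 1-way model). The endothelial marker VWF rose by 0.55 on the log2 scale (adjusted p = 0.0271 from limma), which is under 2-fold. These marker calls are against the mean of WFPA and EV cells, where 1.94% of all genes were called higher and 2.06% lower. Of the 4 epithelial calls, KRT8 and KRT18 were also called against EV, whereas CDH1 and GATA3 were not (-0.12 and -0.33). In WFPA against EV, CDH1 (3.11), GATA3 (1.60) and COL1A2 (1.52) were called higher and PTPRC (-2.21) lower. The part of these differences in the results below was not tested.

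Syndecans span the membrane and pass signals through a short cytoplasmic tail, whereas glypicans are tied to the outer face of the membrane by a glycolipid anchor. The heparan sulfate chains of both hold growth factors, Wnt ligands, chemokines and matrix proteins, and enzymes that cut the core protein near the membrane release them from the cell. In melanoma and other tumors they have been studied for their parts in adhesion, spreading and growth factor signaling.

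SDC3 and GPC2 were the members with a probe set that was higher in WWOX cells than in WFPA cells and than in EV cells, and GPC6 was the member called higher in WFPA cells than in EV cells. Their promoter windows are shown because these genes carried the differences in those directions. The windows, from RefSeq on GRCh38.p14, run from 250 bases before the gene's start to 50 after it, and are written 5′ to 3′ on the gene's strand. Of the 10 members, 8 had a window in the part of the promoter table that was searched, and SDC2 and GPC3 had none. The promoters left out of the search are given with the data processing below. A missing window therefore does not show that the full table lacks the gene. Capitals mark the letters of any of 4 motifs searched on both strands: the GC box GGGCGG, the E-box CANNTG, the SOX core ACAAAG and the TATA box TATAAA.
SDC3, chr1:30908709-30909008, minus strand: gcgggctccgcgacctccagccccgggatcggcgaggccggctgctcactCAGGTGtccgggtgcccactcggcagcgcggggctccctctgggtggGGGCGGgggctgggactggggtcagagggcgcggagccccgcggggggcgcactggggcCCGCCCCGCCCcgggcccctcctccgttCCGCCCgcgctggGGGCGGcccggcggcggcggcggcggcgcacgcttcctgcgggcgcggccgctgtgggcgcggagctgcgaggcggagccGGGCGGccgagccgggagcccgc
GPC2, chr7:100177332-100177631, minus strand: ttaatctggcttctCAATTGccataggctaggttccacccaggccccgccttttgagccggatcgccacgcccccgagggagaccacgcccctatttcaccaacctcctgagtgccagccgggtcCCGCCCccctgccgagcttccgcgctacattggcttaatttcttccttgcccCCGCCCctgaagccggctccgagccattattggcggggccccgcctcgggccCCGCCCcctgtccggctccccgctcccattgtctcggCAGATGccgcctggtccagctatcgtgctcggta
GPC6, chr13:93226557-93226856, plus strand: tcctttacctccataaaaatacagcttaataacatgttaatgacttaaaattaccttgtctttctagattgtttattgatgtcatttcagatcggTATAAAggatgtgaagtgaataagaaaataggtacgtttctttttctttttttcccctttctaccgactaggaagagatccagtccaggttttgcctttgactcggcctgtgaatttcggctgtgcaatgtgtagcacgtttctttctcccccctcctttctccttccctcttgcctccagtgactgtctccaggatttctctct
The SDC3 window held 6 GC boxes, a pair of which overlap in 1 run of capitals, and 1 E-box. It was 84% G and C with 46 CpG, and 99.5% of the 35116 promoters of the table had a lower share of G and C. The GPC2 window held 3 GC boxes and 2 E-boxes and was 66% G and C. The GPC6 window held 1 TATA box and no GC box, and it was 40% G and C. Among all 35116 windows, 45% held a GC box, 68.7% an E-box, 16.1% a SOX core and 11.5% a TATA box. A match is a run of letters and was not tested as a binding site.

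Differences between groups were read from 1 limma fit of all 9 arrays, with Benjamini-Hochberg adjustment over all probe sets tested. A probe set is said to pass at an adjusted p under 0.05 and is called where it also differs by at least 2-fold, that is, by 1 on the log2 scale. When WWOX cells were compared with the mean of WFPA and EV cells, 7 of the 18 probe sets passed (4 higher, 3 lower) and 2 were called (1 higher, 1 lower), against 16.3% passing (6.88% higher, 9.46% lower) and 3.23% called (1.46% higher, 1.77% lower) among all probe sets. Of the 8 syndecan probe sets 6 passed, and of the 10 glypican probe sets 1 passed. The median log2 difference of the 18 was 0.15, and that of all probe sets was 0.03. The 3 WWOX arrays lay beyond the 6 others at 6 of the 18 probe sets (3 above, 3 below), against 17.1% of all probe sets. Comparisons that involve WWOX share the WWOX arrays and are not independent of each other.

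**Figure D1:**
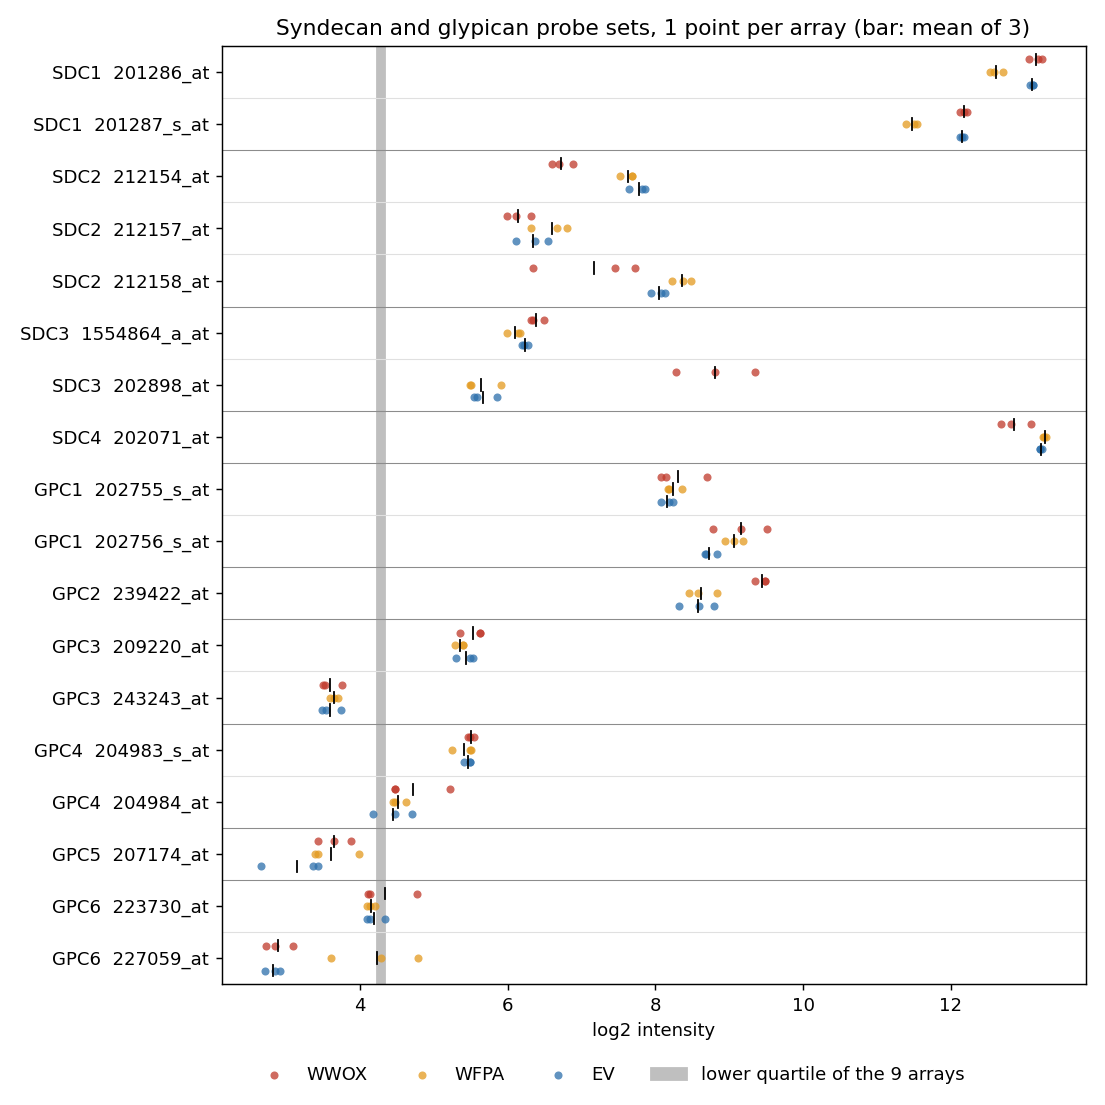
Log2 intensity (x axis) at each syndecan and glypican probe set (rows), with 1 point per array for WWOX, WFPA and EV cells from top to bottom in each row, black bars for means of 3 arrays, and the lower quartiles of the 9 arrays (4.23 to 4.34) as a grey band. At SDC3 202898_at the WWOX points lie from 8.27 to 9.34 and the others from 5.49 to 5.91, and both SDC1 rows have their WFPA points lowest.

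SDC3, a syndecan best known from neural tissue, was the member with the most marked difference, and it was seen at 1 of its 2 probe sets. At 202898_at the log2 intensity was 8.27, 8.80 and 9.34 in WWOX cells, 5.49, 5.50 and 5.91 in WFPA cells and 5.54, 5.86 and 5.58 in EV cells. All WWOX arrays were far above the other 6, and the WFPA and EV arrays overlapped. SDC3 rose 8.94-fold against the mean of WFPA and EV cells, that is, by 3.16 on the log2 scale (limma standard error 0.213, 95% interval 2.68 to 3.64, adjusted p = 1.73e-05). The log2 difference was 3.15 against EV (adjusted p = 5.48e-05) and 3.17 against WFPA (adjusted p = 4.66e-05). WFPA cells differed from EV cells by -0.02 on the log2 scale (95% interval -0.58 to 0.53, adjusted p = 0.978 from limma). With each array left out in turn the difference ranged between 2.89 and 3.43 and was called in 9 of 9 fits.

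The other SDC3 probe set, 1554864_a_at, read 6.34, 6.31 and 6.49 in WWOX cells, 6.16, 5.99 and 6.13 in WFPA cells and 6.28, 6.19 and 6.22 in EV cells. The WWOX arrays were again above the other 6, by a small margin. The log2 difference of 0.22 (standard error 0.0771, 95% interval 0.04 to 0.39) did not pass (adjusted p = 0.0918 from limma). The log2 differences at the 2 SDC3 probe sets were 2.94 apart, and the file does not say which transcripts each reads.

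SDC2, a syndecan of mesenchymal cells, was lower in WWOX cells at 2 of its 3 probe sets. At 212154_at the log2 intensity was 6.59, 6.69 and 6.88 in WWOX cells, 7.68, 7.52 and 7.68 in WFPA cells and 7.65, 7.82 and 7.85 in EV cells. The WWOX arrays were below all others with a clear gap. The log2 difference of -0.98 (limma, standard error 0.0931, adjusted p = 1.52e-04) passed and was just short of 2-fold against the mean of WFPA and EV. Against EV it was -1.05 (adjusted p = 3.06e-04, called) and against WFPA -0.91 (adjusted p = 6.10e-04, not called). The value lay so near the limit that single arrays decided the call: against the mean it reached 2-fold without EV replicate 1 (-1.01), WFPA replicate 2 (-1.01) or WWOX replicate 3 (-1.06), and against EV it fell short without WWOX replicate 1 (-0.99), with an adjusted p under 0.05 each time.

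At 212158_at SDC2 read 7.72, 7.45 and 6.34 in WWOX cells, 8.23, 8.37 and 8.48 in WFPA cells and 8.13, 8.07 and 7.93 in EV cells. The WWOX arrays were below all others, and WWOX replicate 3 stood well below the other 2 (SD 0.734, against 0.125 in WFPA and 0.101 in EV cells). This probe set was called lower against the mean of WFPA and EV, by a log2 difference of -1.03 (limma, standard error 0.258, adjusted p = 0.0258), and against WFPA, by -1.19 (adjusted p = 0.026). Against EV the difference of -0.87 did not pass (adjusted p = 0.0991 from limma). Without WWOX replicate 3 it was -0.61 against the mean (adjusted p = 0.00829), -0.77 against WFPA (adjusted p = 0.00466) and -0.46 against EV (adjusted p = 0.049), each past the p threshold and under 2-fold. Against the mean the adjusted p was also above 0.05 without EV replicate 1 (0.0538), EV replicate 2 (0.0527), WFPA replicate 2 (0.0534) or WFPA replicate 3 (0.0575). Against WFPA it was above 0.05 without WFPA replicate 1 (0.0595), WFPA replicate 2 (0.0755) or WFPA replicate 3 (0.0864), and without WWOX replicate 1 the difference against EV was called, at -1.15 (adjusted p = 0.0307). The call against the mean was also lost with quantile normalization (-0.99) and in a plain 1-way model (adjusted p = 0.0846), where the difference against WFPA did not pass either (adjusted p = 0.0838).

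The third SDC2 probe set, 212157_at, read 6.11, 6.32 and 5.99 in WWOX cells, 6.80, 6.32 and 6.66 in WFPA cells and 6.36, 6.54 and 6.12 in EV cells. The groups overlapped, and the log2 difference of -0.32 did not pass (95% interval -0.63 to -0.02, adjusted p = 0.144 from limma). Across the 3 SDC2 probe sets the log2 differences against the mean of WFPA and EV thus ran between -1.03 and -0.32.

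SDC1, the syndecan of epithelial cells, differed in the mutant cells. At 201287_s_at the log2 intensity was 12.13, 12.17 and 12.22 in WWOX cells, 11.50, 11.39 and 11.55 in WFPA cells and 12.18, 12.13 and 12.15 in EV cells. At 201286_at it was 13.18, 13.23 and 13.06 in WWOX cells, 12.71, 12.54 and 12.58 in WFPA cells and 13.11, 13.11 and 13.08 in EV cells. At both, the WFPA arrays were lowest, and WWOX and EV arrays overlapped.

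In WFPA cells SDC1 fell against EV by 0.67 on the log2 scale at 201287_s_at (standard error 0.0806, adjusted p = 0.00159 from limma) and by 0.49 at 201286_at (standard error 0.0872, adjusted p = 0.0109), both under 2-fold. Probe set 201286_at did not pass without WFPA replicate 2 (-0.45, adjusted p = 0.0541) or WFPA replicate 3 (-0.48, adjusted p = 0.0509). WWOX cells lay above WFPA cells by 0.69 (adjusted p = 5.39e-04 from limma) and 0.55 (adjusted p = 0.00301) on the log2 scale. Against EV the WWOX cells differed by 0.02 (95% interval -0.16 to 0.20) and 0.06 (95% interval -0.14 to 0.25), and neither passed. The higher values against the mean of WFPA and EV, 0.36 (adjusted p = 0.00841 from limma) and 0.30 (adjusted p = 0.0254), therefore contain the low WFPA arrays, and the second of them passed in 3 of the 9 fits that left out 1 array, with adjusted p-values up to 0.096. With WFPA and EV fitted as 1 group their adjusted p-values were 0.281 and 0.245.

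SDC4, a widely expressed syndecan of focal adhesions, read 13.08, 12.82 and 12.68 in WWOX cells, 13.27, 13.29 and 13.25 in WFPA cells and 13.21, 13.20 and 13.24 in EV cells at 202071_at. All WWOX arrays were below the other 6, and they were spread more widely (SD 0.206, against 0.02 in WFPA and 0.021 in EV cells). SDC4 fell by 0.38 on the log2 scale against the mean of WFPA and EV (standard error 0.0932, adjusted p = 0.0227 from limma) and by 0.41 against WFPA (adjusted p = 0.0307), under 2-fold in both. The difference of -0.36 against EV did not pass (adjusted p = 0.0658 from limma), and it passed without WWOX replicate 1 (-0.47, adjusted p = 0.0113). Against WFPA it passed in 3 of the 9 fits that left out 1 array, and against the mean in 5. Against the mean it did not pass without EV replicate 3 (adjusted p = 0.0501), WFPA replicate 2 (0.0511), WWOX replicate 2 (0.0785) or WWOX replicate 3 (0.0593, with a difference of -0.29).

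**Figure D2:**
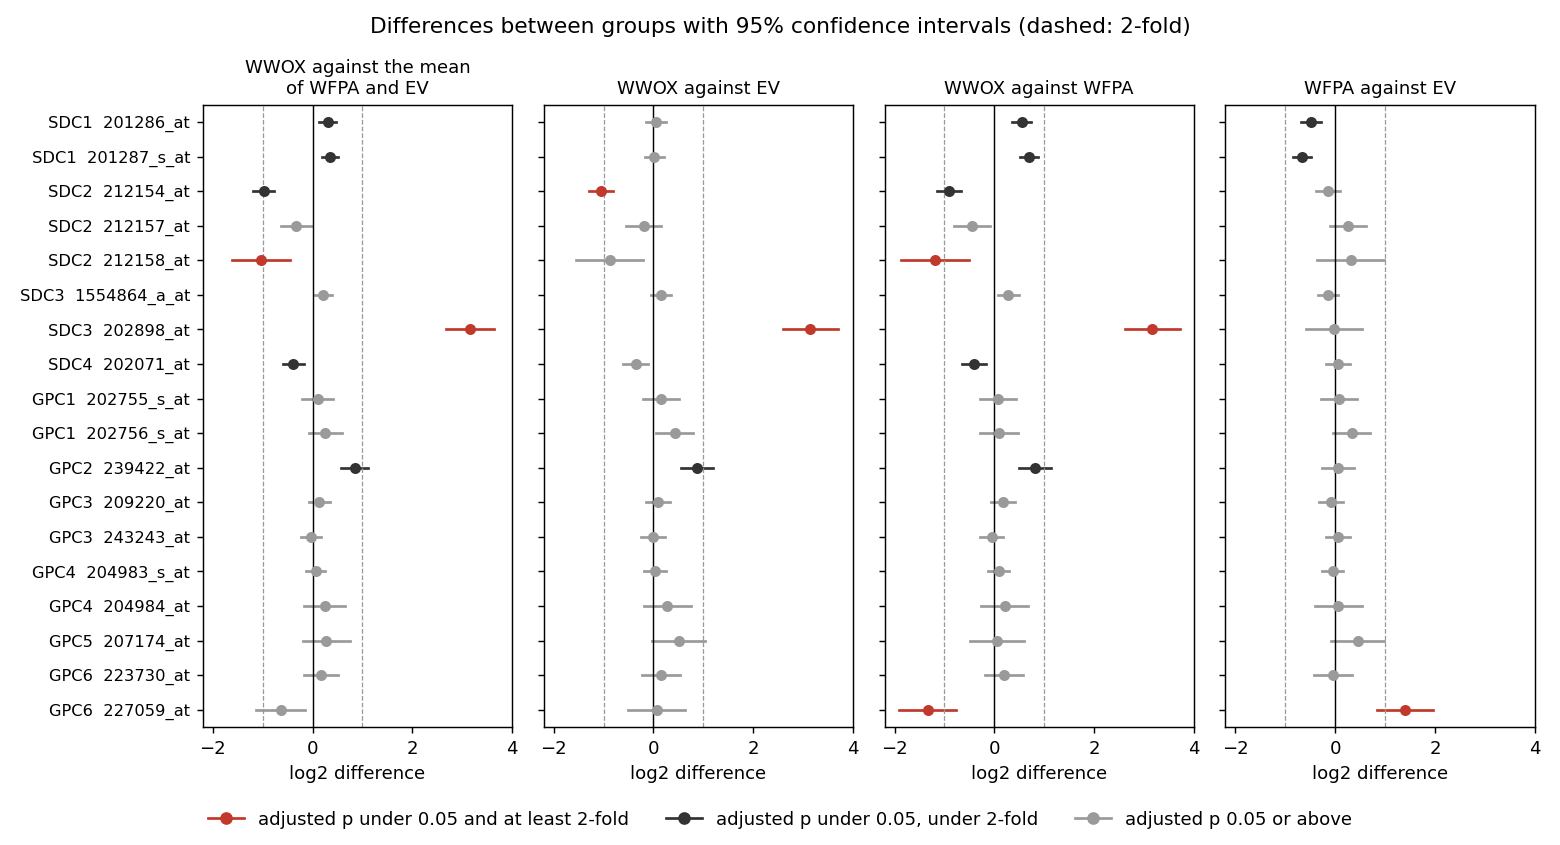
Log2 difference (x axis) with 95% confidence intervals for each probe set (rows) in the 4 comparisons (panels), with dashed lines at 2-fold. SDC3 202898_at stands near 3.16 in the 3 comparisons of WWOX cells and at -0.02 in WFPA against EV, where GPC6 227059_at is at 1.40.

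Among the glypicans, GPC2, known from developing neurons and as a surface antigen of neuroblastoma, was higher in WWOX cells. At 239422_at the log2 intensity was 9.49, 9.49 and 9.34 in WWOX cells, 8.84, 8.57 and 8.45 in WFPA cells and 8.59, 8.32 and 8.79 in EV cells. The WWOX arrays were above all others, and the WFPA and EV arrays overlapped. GPC2 rose 1.80-fold, a log2 difference of 0.84 (standard error 0.123, 95% interval 0.57 to 1.12, adjusted p = 0.00184 from limma). It rose by 0.87 against EV (adjusted p = 0.00443) and by 0.82 against WFPA (adjusted p = 0.00462), while WFPA and EV differed by 0.05 (95% interval -0.27 to 0.37, adjusted p = 0.90). It passed in 9 of 9 fits that left out 1 array, with an adjusted p of at most 0.0106, and was under 2-fold in each.

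GPC6, a glypican with roles in skeletal growth, differed at a dim probe set. At 227059_at the log2 intensity was 2.72, 3.08 and 2.85 in WWOX cells, 4.28, 3.60 and 4.78 in WFPA cells and 2.85, 2.91 and 2.71 in EV cells. All WFPA arrays were above the other 6, and the WWOX and EV arrays overlapped. In WFPA cells it was called higher than in EV cells, by a log2 difference of 1.40 (limma, standard error 0.252, adjusted p = 0.0116), and WWOX cells were called lower than WFPA cells, by -1.34 (adjusted p = 0.0070). Both calls held in 9 of 9 fits that left out 1 array, and the difference between WFPA and EV ranged between 1.12 and 1.71 in them. WWOX and EV differed by 0.06 (95% interval -0.51 to 0.63, adjusted p = 0.907 from limma). Against the mean of WFPA and EV the difference of -0.64 did not pass (adjusted p = 0.0811), and it passed without WFPA replicate 2 (-0.79, adjusted p = 0.00929). The values of WWOX and EV cells and of WFPA replicate 2 lay under the lower quartile of their arrays, and WFPA replicate 1 was just above its own (4.25). No background level is given, so the size of this change is uncertain. In a plain 1-way model without moderated variances the difference between WFPA and EV had an adjusted p of 0.0563. The other GPC6 probe set, 223730_at, ranged from 4.09 to 4.77 over the 9 arrays and passed in none of the 4 comparisons.

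GPC1, a widely expressed glypican, read 8.79, 9.16 and 9.51 in WWOX cells, 9.06, 8.94 and 9.18 in WFPA cells and 8.68, 8.83 and 8.68 in EV cells at 202756_s_at. The WFPA arrays were above the EV arrays, whereas WWOX arrays overlapped with both. Log2 differences of 0.26 against the mean of WFPA and EV (95% interval -0.07 to 0.59, adjusted p = 0.261 from limma), 0.42 against EV (adjusted p = 0.151) and 0.33 between WFPA and EV (adjusted p = 0.335) did not pass. Without WWOX replicate 1 the first of these was 0.44 (adjusted p = 0.0355) and the second 0.61 (adjusted p = 0.0207), and without WWOX replicate 3 they were 0.080 and 0.24. At 202755_s_at the groups overlapped and the difference against the mean was 0.11 (95% interval -0.20 to 0.42, adjusted p = 0.632 from limma). In both probe sets WWOX replicate 3 was the highest array of the 9, at 8.70 and 9.51.

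The remaining glypicans passed in no comparison. GPC3, an oncofetal antigen of liver cancer, ranged from 5.28 to 5.62 at 209220_at and from 3.49 to 3.75 at 243243_at. GPC4 ranged from 5.25 to 5.54 at 204983_s_at and from 4.17 to 5.21 at 204984_at, and GPC5 from 2.65 to 3.98 at 207174_at. Their log2 differences between WWOX and the mean of WFPA and EV lay between -0.03 and 0.28, and the widest 95% interval, that of GPC5, ran from -0.18 to 0.74. All 9 arrays were under the lower quartile of the array at GPC3 243243_at and GPC5 207174_at. GPC3 and GPC4 are neighbours on chromosome X and GPC5 and GPC6 on chromosome 13, with 0 protein-coding genes between the genes of either pair.

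When the mutant was compared with the empty vector, 3 of the 18 probe sets passed (1 higher, 2 lower), those of GPC6 and SDC1 above, and 1 was called, against 6.64% passing (4.04% higher, 2.6% lower) and 1.73% called (1.26% higher, 0.474% lower) among all probe sets. The WFPA arrays lay beyond the EV arrays at 7 of the 18 probe sets, against 29.3% of all. For WWOX against EV alone, 3 of 18 passed and 2 were called (11.8% and 3.29% of all probe sets). For WWOX against WFPA, 8 of 18 passed and 3 were called (16.3% and 3.98% of all).

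The genes whose pattern over the 9 arrays was most like that of SDC3 202898_at, by Pearson correlation at the brightest probe set of each gene, were DBI (r = 0.993), CD200 (r = 0.992) and CAPN3 (r = 0.991). CD200 lay 3.49 higher and CAPN3 3.03 higher in WWOX cells on the log2 scale, and DBI 0.21 higher with an adjusted p of 0.0599. The genes most like SDC2 212158_at were NDUFA12 (r = 0.983), SMIM15 (r = 0.980) and CCDC7 (r = 0.979). Their log2 differences against the mean of WFPA and EV were -0.27, -0.21 and -0.85, all under 2-fold (adjusted p = 0.0479, 0.0973 and 0.0597 from limma). At this SDC2 probe set WWOX replicate 3 stood well below the other WWOX arrays, and its part in these correlations was not tested. All 9 points are shared arrays in 3 groups, and the correlations are a description.

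Genes whose products build, modify, cut or bind these chains or their core proteins were read from 8 lists of 123 genes, of which 112 were measured here, each gene by its brightest probe set over the 9 arrays. In WWOX against the mean of WFPA and EV, 3 were called higher and 6 lower, 8.04% of the 112, against 4.01% of 19775 genes (1.94% higher, 2.06% lower), and without the fold limit 23 passed higher (20.5%) and 17 lower (15.2%), against 9.49% higher and 10.9% lower of all genes (20.3% in all). Their median log2 difference was 0.09, and that of all genes 0.04. The enzymes of chain synthesis and modification had no called gene in this comparison by limma or by a plain 1-way model. Of 11 linker and polymerization enzymes 5 had an unadjusted p under 0.05, of 18 sulfation and epimerization enzymes 5, and of 11 editing and degradation enzymes 4, against 35.3% of all genes. Chosen after their values were seen, the polymerase EXT1 fell by 0.79 on the log2 scale (adjusted p = 1.09e-04 from limma) and the related EXTL1 rose by 0.98 (adjusted p = 9.60e-05), both under 2-fold. Against WFPA alone EXTL1 was called higher, by 1.09 (adjusted p = 1.33e-04 from limma), and against EV alone it rose by 0.87, under 2-fold. Of 10 cytoplasmic partners of the syndecans 0 were called in limma or a plain 1-way model (6 at an unadjusted p under 0.05), and 4 passed lower, among them CASK, a scaffold that binds the syndecan tail, at -0.71 (adjusted p = 5.20e-04).

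Of 13 enzymes listed as proteoglycan sheddases, not all of them proteases, MMP2 was called higher and MMP3 lower. Of all genes, 4.01% were called. The gelatinase MMP2 read 8.10, 8.13 and 8.19 in WWOX cells, 6.90, 6.59 and 6.71 in WFPA cells and 6.73, 6.79 and 6.93 in EV cells. Its log2 difference was 1.37 (limma, standard error 0.09, adjusted p = 1.53e-05), and that of the mean of its probe sets was 0.47. The stromelysin MMP3 read 12.50, 12.29 and 12.48 in WWOX cells, 13.64, 13.72 and 13.66 in WFPA cells and 14.12, 14.04 and 14.13 in EV cells. Its log2 difference was -1.46 (limma, standard error 0.0768, adjusted p = 3.90e-06). The WWOX arrays of both genes were apart from the other 6. Of the 13 listed enzymes 6 passed higher and 1 lower, against 9.49% and 10.9% of all genes. Those higher included MMP14 by 0.50, MMP16 by 0.61 and ADAM10 by 0.44. Against WFPA alone MMP14 (0.35, adjusted p = 0.0527 from limma) and MMP16 (0.39, adjusted p = 0.0655) did not pass. ADAM10 passed there (0.46, adjusted p = 0.00417 from limma).

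Of 10 other carriers of heparan sulfate, TGFBR3 alone was called, higher in WWOX cells, against 4.01% of all genes called. TGFBR3, or betaglycan, is a co-receptor of TGF-beta, and read 7.95, 7.90 and 6.47 in WWOX cells, between 3.65 and 4.03 in WFPA cells and 5.09, 4.97 and 4.64 in EV cells. The WWOX arrays were above all others, with WWOX replicate 3 the lowest of them, and the log2 difference was 3.04 (standard error 0.305, adjusted p = 2.13e-04 from limma). The WFPA values lay under the lower quartile of their arrays, so the size of this difference is uncertain, and with the mean of all probe sets of the gene it was 1.57. In WFPA cells the basement membrane proteoglycan perlecan (HSPG2) was called higher than in EV cells, by 1.05 (adjusted p = 6.63e-04), or 0.98 without EV replicate 1 and 0.62 with the mean of all its probe sets.

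Of 26 growth factors, receptors and other ligands that bind heparan sulfate, 1 was called higher and 4 lower in WWOX cells. Among all genes 1.94% were called higher and 2.06% lower. FGF1, a mitogen that needs heparan sulfate to bind its receptors, read 7.81, 7.01 and 7.68 in WWOX cells, 9.68, 9.67 and 9.66 in WFPA cells and 9.32, 9.53 and 9.52 in EV cells. Its log2 difference was -2.06 (limma, standard error 0.16, adjusted p = 4.35e-05). HBEGF, a heparin-binding ligand of the EGF receptor, fell by 1.68 (adjusted p = 3.26e-05) and the chemokine CXCL8 by 1.27 (adjusted p = 1.97e-05). At CXCL8, WWOX minus EV was -0.90 (adjusted p = 5.33e-04 from limma), under 2-fold, and WFPA minus EV was 0.74 (adjusted p = 0.00312). Its call against the mean therefore contains the high WFPA values. Lipoprotein lipase (LPL), which is held at cell surfaces by heparan sulfate, rose by 1.85 (adjusted p = 3.02e-06). FGF1 and LPL arrays of WWOX cells did not overlap with any others. With the mean of all probe sets of a gene the change was under 2-fold for HBEGF (-0.89) and CXCL8 (-0.91).

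The call of WNT5A, a Wnt ligand tied to melanoma invasion, came from the mutant cells. It read 3.41, 3.38 and 3.31 in WWOX cells, 5.48, 6.76 and 5.54 in WFPA cells and 3.88, 3.59 and 3.03 in EV cells. The WWOX and EV values lay under the lower quartile of their arrays, so the sizes that follow are uncertain. The WFPA arrays stood above the other 6, with a log2 difference between WFPA and EV of 2.43 (limma standard error 0.331, adjusted p = 0.00312) and of -0.13 between WWOX and EV (adjusted p = 0.847). The difference of -1.34 against the mean of WFPA and EV (adjusted p = 0.0127) therefore holds the high WFPA values. It was not called in a plain 1-way model (adjusted p = 0.0557), with WFPA and EV as 1 group (adjusted p = 0.267) or with the mean of all probe sets (-0.82), which gave 1.46 between WFPA and EV. VEGFA, a heparan sulfate-binding angiogenic factor, was also called higher in WFPA cells, at 1.22 above EV cells (adjusted p = 2.62e-04, and 0.95 with the mean of all probe sets), as was the sulfotransferase HS3ST3A1, by 1.68 (adjusted p = 0.0058). HS3ST3A1 was at the same time 1.81 higher in WWOX cells than with EV (adjusted p = 0.00234).

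Of 13 matrix proteins that bind heparan sulfate, 1 was called in WWOX cells, against 4.01% of all genes. This was COL5A1, a fibrillar collagen chain, which was lower. It read 6.15, 5.56 and 5.48 in WWOX cells, 5.62, 6.32 and 6.38 in WFPA cells and 7.39, 7.40 and 7.55 in EV cells. WWOX and WFPA arrays overlapped and both were below EV. The log2 difference was -1.05 against the mean of WFPA and EV (adjusted p = 0.00731 from limma), -1.72 against EV (adjusted p = 0.00149) and -1.35 between WFPA and EV (adjusted p = 0.00906). Against the mean it was under 2-fold without WFPA replicate 2 (-0.99), WFPA replicate 3 (-0.98), WWOX replicate 2 (-0.96) or WWOX replicate 3 (-0.92). With the mean of all probe sets it was -0.68, and -0.99 between WFPA and EV, and with WFPA and EV as 1 group the adjusted p was 0.144. Over the 8 lists, 4 genes were called higher and 1 lower in WFPA against EV, against 2.23% of all genes called (1.54% higher, 0.693% lower).

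**Figure D3:**
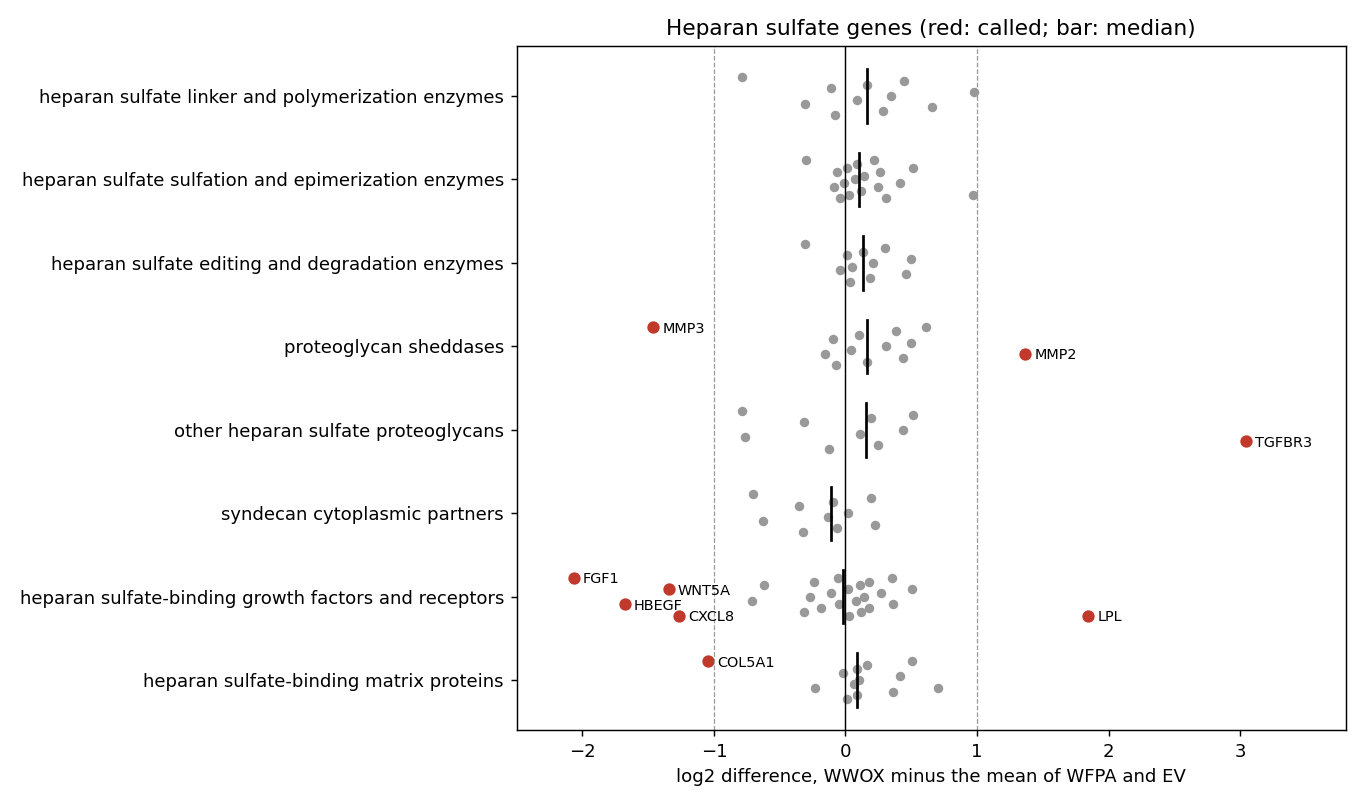
Log2 difference between WWOX cells and the mean of WFPA and EV cells (x axis) for the measured genes of the 8 heparan sulfate lists (rows), with 1 point per gene, called genes in red and named, black bars for medians and dashed lines at 2-fold. The 9 called genes run from FGF1 at -2.06 to TGFBR3 at 3.04, and the rows of chain-building and chain-editing enzymes have no red point.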

How the data were processed

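Log2 intensities of 9 arrays were analysed. The authors made them with Partek Genomics Suite 6.5 and deposited log2 intensities, 1 column per array. The background and normalization methods are not given in the sources used here, and no further normalization was applied. Array medians differed by at most 0.02. Group means were fitted with limma 3.58.1 under R 4.3.3 (6 residual and 3.04 prior degrees of freedom), and p-values were adjusted by Benjamini-Hochberg over 54613 probe sets. The fit was tested on simulated data. Of these probe sets, 41091 carry 1 gene, 1801 several and 11721 none in the platform annotation.

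Whether the 3 arrays of 1 group came from separate cultures is not given in the sources used here, so the p-values measure only the spread between arrays, and the number of arrays limits the precision. A 4-fold limit with Bonferroni adjustment, which the methods name, was an alternative. The others were limma-trend, a robust prior, a plain 1-way model, no fold limit, median centring, quantile normalization, 2 filters on dim probe sets, EV and WFPA as 1 group, fits of only the groups compared, a block for the replicate number, fits without 1 array, and 2 other choices of probe set for a gene. All probe sets of the 10 members were named. Of the 8 heparan sulfate lists, up to 4 called genes per list were named for WWOX against the mean of EV and WFPA and up to 2 for WFPA against EV, with the 3 genes most correlated with each member called in WWOX against the mean of EV and WFPA (its probe set of largest change). Marker lists of 5 cell types were read from the same fit. The members and lists were chosen with earlier results of these data known, and 11 listed genes were not analysed here for want of a probe set with 1 gene. Promoters were matched by symbol, with those on chromosome 8 left out. Figures were drawn with Python 3.11.15 and matplotlib 3.10.9.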

Additional observations from a re-analysis of the deposited data

How the results depend on the processing

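The 72 differences of member probe sets were recomputed under the alternatives, giving 1540 values, of which 1464 kept their direction and their side of the threshold, 30 lost the call, 17 gained it, and 29 changed sign with no call under either setting. SDC3 202898_at was called against the mean, EV and WFPA under every alternative. The 2 called probe sets of WWOX against the mean became 1 with a plain 1-way model, quantile normalization, Bonferroni adjustment, a 4-fold limit or both, and 7 with no fold limit. With Bonferroni adjustment, a 4-fold limit or both, the 2 of WWOX against EV became 1, the 3 of WWOX against WFPA became 1 and the 1 of WFPA against EV became 0. With no fold limit WWOX against WFPA had 8. In WFPA against EV the count was also 0 in a plain 1-way model and under both filters on dim probe sets, which drop GPC6 227059_at, and it was 3 with no fold limit. The heparan sulfate genes, 9 called, became 40 with no fold limit, 2 at 4-fold and 1 with Bonferroni adjustment added. With 1 array left out the counts ran from 1 to 2 (the mean), 2 to 2 (EV), 2 to 3 (WFPA), 1 to 1 (WFPA against EV) and 8 to 11 (heparan sulfate genes).

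Same-numbered arrays of different groups had correlations of their deviations from -0.05 to 0.03 (9 pairs, 0 over 0.1), so no shared deviation by number was seen. Whether same-numbered arrays were handled together is not given in the sources used here, and these correlations cannot show it. With the replicate block the counts stayed at 2, 2, 3 and 1, with 9 heparan sulfate genes. Sign changes with 1 array left out were all of uncalled differences. In WWOX against the mean the ranges were -0.089 to 0.22 (GPC1 202755_s_at), -0.11 to 0.020 (GPC3 243243_at), -0.0038 to 0.36 (GPC4 204984_at) and -0.044 to 0.29 (GPC6 223730_at). Against EV they were -0.050 to 0.26 (GPC1 202755_s_at), -0.082 to 0.077 (GPC3 243243_at), -0.069 to 0.26 (GPC6 223730_at), -0.036 to 0.14 (GPC6 227059_at) and -0.00085 to 0.044 (SDC1 201287_s_at). Against WFPA they were -0.13 to 0.19 (GPC1 202755_s_at), -0.085 to 0.28 (GPC1 202756_s_at), -0.037 to 0.33 (GPC4 204984_at), -0.060 to 0.25 (GPC5 207174_at, and -0.020 with quantile normalization) and -0.019 to 0.31 (GPC6 223730_at). In WFPA against EV they were -0.071 to 0.16 (GPC2 239422_at), -0.095 to 0.030 (GPC4 204983_s_at), -0.074 to 0.19 (GPC4 204984_at), -0.097 to 0.025 (GPC6 223730_at) and -0.16 to 0.076 (SDC3 202898_at). Fits of only the groups compared have no value of their own for WWOX against the mean of both other groups. The cause of these shifts was not tested. Signal near the lower quartile of the arrays limits what can be read of GPC3, GPC5 and GPC6.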

Other observations

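The WWOX arrays were more spread at the member probe sets. The median SD of the 18 was 0.174 in WWOX cells, 0.102 in WFPA cells and 0.109 in EV cells, and over all probe sets it was 0.176, 0.112 and 0.128 in the same order. At 11 of the 18 the largest SD was that of WWOX cells (61.1%, against 52.9% of all probe sets). WWOX replicate 3 was the array farthest from the median of its group at 12 of the 18 (66.7%, against 46.2% of all probe sets). It had the highest WWOX value of SDC3 202898_at and of both GPC1 probe sets and the lowest of SDC2 212158_at and SDC4.

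Several glypican probe sets held exactly the same value in different arrays. GPC4 204984_at was at 4.48 in 4 arrays and GPC4 204983_s_at at 5.49 in 4, while GPC5 207174_at was at 3.43 in 3 and GPC6 223730_at at 4.13 in 3. These 4 of the 18 members are 22.2%, against 15.9% of all probe sets with an equal value in at least 3 arrays. With all probe sets ranked by mean level and cut into 4 equal classes, that share was 32.9%, 21.2%, 7.68% and 1.87% in order of rising level. SD and standard errors at such probe sets rest on fewer distinct values than arrays.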
